A study of Mus musculus with 6 samples.

Results

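The integrin and laminin subunit genes were examined in lung mesenchymal stromal cells (LMSCs) from tumor-bearing mice. Members were all genes of the deposited table whose symbol is Itga followed by a number or letters, Itgb followed by 1 digit, or Lama, Lamb or Lamc followed by 1 digit, which gave 38 rows with 37 names among 34745 genes (27 integrin rows and 11 laminin rows). The mice carried MMTV-PyMT, a transgene in which a mammary tumor virus promoter drives the polyoma middle T oncogene in mammary epithelium, and its expression in the cultured stromal cells was not examined. A-LMSCs came from the adenoma stage (labelled E, aged 6 to 7 weeks), PM-LMSCs from the pre-metastatic stage (labelled L, aged 9 to 10 weeks) and M-LMSCs from the metastatic stage (labelled M, aged 13 to 14 weeks). These ages are those of the labels, and the paper's staging gives slightly older mice for A and PM. All groups share the transgene, growth as adherent cultures depleted of CD45+ cells, and passage 3, and no library from tumor-free mice was used. There were 2 libraries per stage. The labels give no more than a replicate number, while the paper's legends count the samples of each stage as mice. The p-values measure the spread between these samples.

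Integrins are receptors of an alpha and a beta subunit that tie the actin cytoskeleton to the matrix around a cell and signal in both directions across the membrane. Laminins are trimers of an alpha, a beta and a gamma chain that build the basement membrane, and their alpha chain carries the main site that integrins bind. In the lung, laminins line the alveolar, vascular and pleural basement membranes, and Itgb1 (CD29) is a surface marker by which stromal cells are recognised.

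Promoter sequence from RefSeq (GRCm38.p6) is shown for Itga3 and Lama5, which were both higher in PM-LMSCs, and for Itga11, which was higher in M-LMSCs. The stretch lies upstream of the start site and outside the annotated gene, reads 5′ to 3′ on the gene's strand, and has GC boxes (GGGCGG on either strand) in capitals. The positions are chr11:95076802-95076964 on the minus strand for Itga3, chr2:180225860-180226109 on the minus strand for Lama5 and chr9:62677605-62677825 on the plus strand for Itga11.
Itga3: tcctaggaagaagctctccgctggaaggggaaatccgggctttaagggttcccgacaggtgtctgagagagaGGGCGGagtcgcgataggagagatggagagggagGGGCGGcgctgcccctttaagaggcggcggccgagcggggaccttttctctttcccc
Lama5: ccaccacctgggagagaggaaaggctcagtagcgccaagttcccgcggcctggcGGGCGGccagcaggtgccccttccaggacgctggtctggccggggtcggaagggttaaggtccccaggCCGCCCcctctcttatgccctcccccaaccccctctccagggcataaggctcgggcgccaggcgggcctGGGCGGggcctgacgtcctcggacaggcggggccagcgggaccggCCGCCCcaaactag
Itga11: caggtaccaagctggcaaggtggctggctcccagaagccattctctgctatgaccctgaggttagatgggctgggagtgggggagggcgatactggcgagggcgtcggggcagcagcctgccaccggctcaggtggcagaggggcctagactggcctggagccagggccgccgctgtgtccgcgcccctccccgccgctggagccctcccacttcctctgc
The Itga3 stretch held 2 GC boxes, the Lama5 stretch held 4 and the Itga11 stretch held 0. Their GC contents were 62.6%, 72.4% and 69.2%, against a median of 52.4% over all 32851 RefSeq windows. Over the 250 bases before a start, 9 of 26 windows of 23 members held a GC box, against 32.7% of all windows. An AP-1 motif (TGANTCA, either strand) was in 1 of the 26, against 6.7% of all, and a TEAD motif (GGAATG, either strand) in 3 of the 26, against 12.6% of all. Itga6, Itga7, Itgad, Itgae, Itgal, Itgb2, Itgb3, Itgb4, Lama1, Lama3, Lama4, Lamc1 and Lamc3 had no entry.

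Levels are in FPKM, the fragments of a gene divided by its length and by the size of the library, so that genes can be compared. Itgb1 and Itga5, the subunits of the classical fibronectin receptor, were the most abundant. Itga5 stood at 339.8 and 349 FPKM at stage A, 404 and 397 at PM and 292 and 317 at M, and took between 75.3% and 86.0% of the summed integrin alpha FPKM of each library. Itgb1 stood at 335 and 301 FPKM at stage A, 418 and 316 at PM and 466 and 283 at M, with the stages overlapping. Itgb5, which pairs with Itgav to bind vitronectin, followed with 117 to 152 FPKM. Lamc1, Lamb1 and Lamb2 came next, at 25.3 to 53.1 FPKM over all libraries. The mean over the 6 libraries was at least 1 FPKM for 22 rows, which entered the tests, and 16 rows were left out by that filter.

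**Figure D1:**
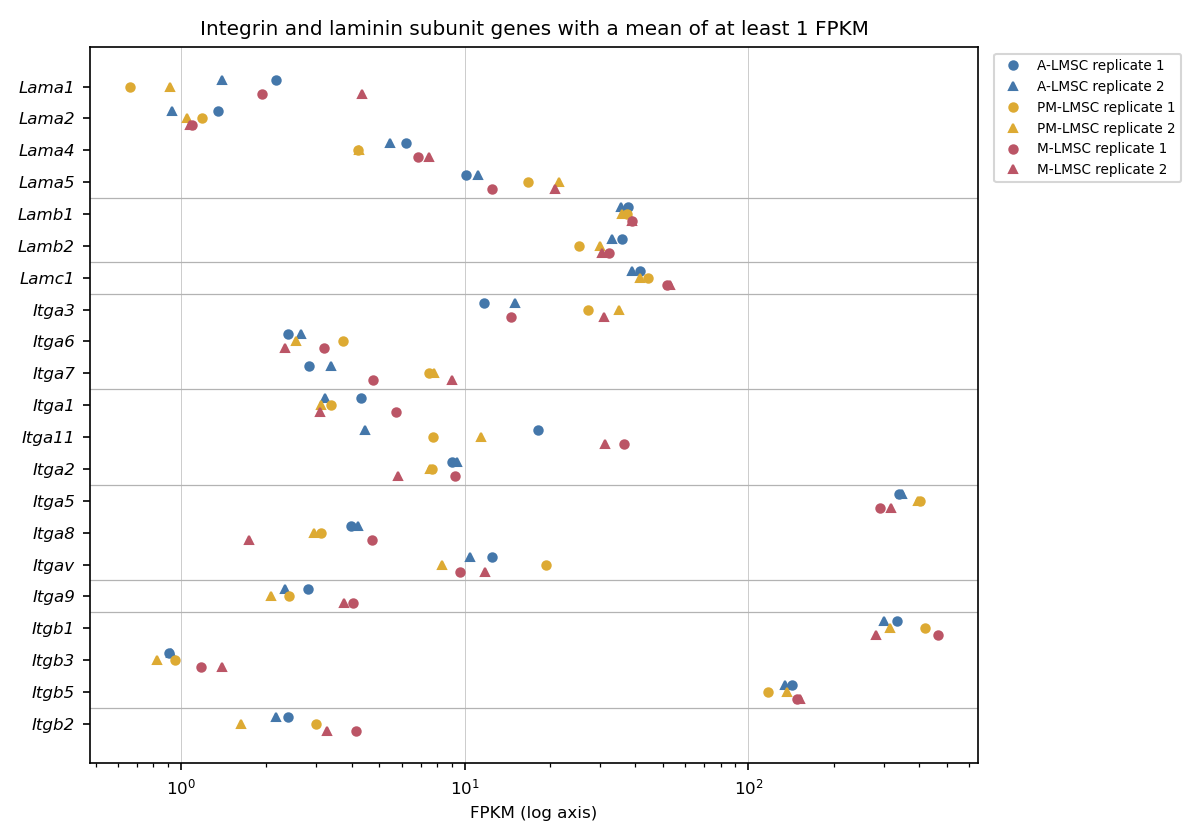
FPKM (log axis) of 21 tested integrin and laminin genes in each library, in blocks by role, with stages in color, circles for replicate 1 and triangles for replicate 2. Itga5 and Itgb1 lie at 283 FPKM or above in every library, and Itga3 and Itga7 lie higher in both PM-LMSC libraries than in both A-LMSC libraries.

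The labelled cell type was checked against its markers. Itgb1 was high, and the integrins of leukocytes and platelets were low. Col1a1, Col1a2, Vim and the other fibroblast markers of the list summed to between 2384 and 3830 FPKM. The 8 smooth muscle and pericyte markers summed to more, between 8578 and 10049 FPKM, most of it Acta2 and Tagln. Of the other lists, the 8 endothelial markers summed to 2.03 to 3.11 FPKM and the 14 epithelial markers to 16.5 to 29.3. Pecam1 stayed at or below 0.034 FPKM. Ptprc (CD45) stayed at or below 0.099 FPKM, but the 14 haematopoietic markers to which it belongs summed to 80.5 to 411 FPKM. Markers of mesothelial and blood cells differed between stages and are given beside the members they moved with. Library depth, estimated from the spacing of low values, was 14.8 M to 20.8 M fragments (M, mega). Deviations from the stage mean correlated between libraries with the same replicate number, so a fit with that number as a block is given where it changed a call. No label says what the number marks, so calls with the block rest on a pairing that may be arbitrary.

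Across stages, no member passed the test at an adjusted p under 0.05 (limma, Benjamini-Hochberg over 10279 genes), and few genes of the whole table did. The share of all tested genes called was 0.0389% for PM-LMSCs against A-LMSCs, 0.0681% for M-LMSCs against A-LMSCs, 0.0292% for M-LMSCs against PM-LMSCs and 0.126% for the mean of both later stages against A-LMSCs. At an unadjusted p under 0.05 there were 5 of 22 members for PM-LMSCs against A-LMSCs (background 6.53% of all genes), 5 of 22 for M-LMSCs against A-LMSCs (background 14.6%), 8 of 22 for M-LMSCs against PM-LMSCs (background 8.94%) and 4 of 22 for the later stages against A-LMSCs (background 11.2%). These counts, and the shares over all genes, moved up or down with the library left out. Such fits leave 1 library in a stage, so their counts at the unadjusted threshold are not given. The median log2 fold change over the 22 was -0.0034, 0.17, 0.04 and 0.04 in the same order, beside 0.01, 0.03, -0.0024 and 0.02 over all tested genes. With the replicate block the members called numbered 0 of 22 for PM-LMSCs against A-LMSCs (background 0.292%), 1 of 22 for M-LMSCs against A-LMSCs (background 3.92%), 0 of 22 for M-LMSCs against PM-LMSCs (background 0.418%) and 2 of 22 for the later stages against A-LMSCs (background 2.05%). The gene called in the M-LMSC contrast was Itga7, and those of the later stages were Itga3 and Itga7. The contrasts against A-LMSCs use the same A-LMSC libraries.

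**Figure D2:**
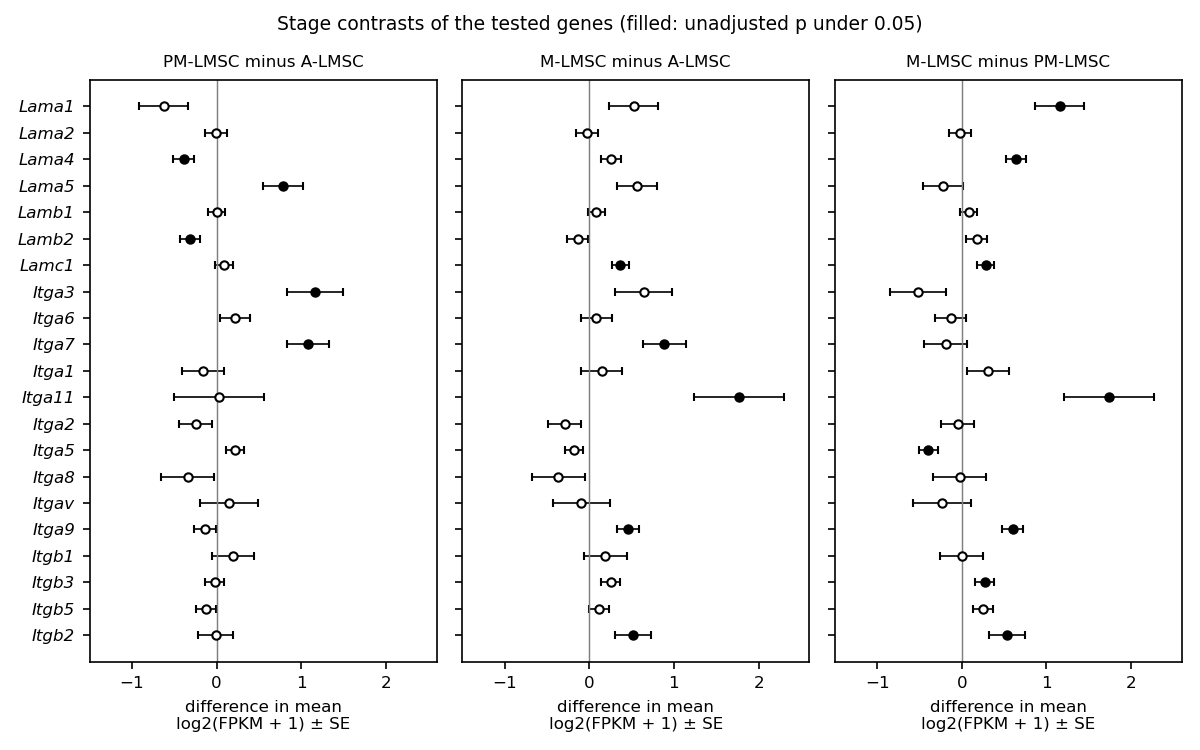
Difference in mean log2(FPKM + 1) between stages for 21 tested genes, with the standard error of the limma fit without the replicate block as bars and filled points where the unadjusted p is under 0.05. Itga3 and Itga7 have the highest values for PM-LMSCs minus A-LMSCs, and Itga11 has the highest in both contrasts of M-LMSCs.

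Of the laminin alpha chains, Lama5 was higher and Lama4 lower in PM-LMSCs than in A-LMSCs. Lama5, the alpha chain of mature epithelial and vascular basement membranes, stood at 10.1 and 11.1 FPKM at stage A, 16.7 and 21.5 at PM and 12.5 and 20.8 at M. All later libraries were above both A-LMSC libraries, and the M-LMSC libraries lay far apart. On the log2(FPKM + 1) scale the difference from A-LMSCs was 0.78 ± 0.24 (SE) for PM-LMSCs (unadjusted p = 0.0143, adjusted p = 0.552) and 0.67 ± 0.21 for the mean of the later stages (unadjusted p = 0.0147, adjusted p = 0.304). With the replicate block the latter adjusted p was 0.0518.

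Lama4, the short alpha chain of mesenchymal and endothelial laminin, stood at 6.21 and 5.48 FPKM at stage A, 4.19 and 4.24 at PM and 6.83 and 7.48 at M. The stages did not overlap, with PM-LMSCs lowest and M-LMSCs highest. The log2 difference was -0.39 ± 0.12 for PM-LMSCs against A-LMSCs (unadjusted p = 0.0149, adjusted p = 0.552) and 0.64 ± 0.12 for M-LMSCs against PM-LMSCs (unadjusted p = 0.00123, adjusted p = 0.217). The ratio of Lama5 to Lama4 FPKM was 1.63 and 2.03 in A-LMSCs, 3.99 and 5.08 in PM-LMSCs and 1.83 and 2.78 in M-LMSCs. Lama5 thus took 73.3% and 77.6% of the summed laminin alpha chain FPKM in PM-LMSCs, above its 50.9% to 61.5% in the other libraries.

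Lama1, the alpha chain of embryonic laminin, stood at 2.16 and 1.39 FPKM at stage A, 0.661 and 0.913 at PM and 1.94 and 4.36 at M. Both PM-LMSC libraries were below all others. For M-LMSCs against PM-LMSCs the log2 difference was 1.15 ± 0.29 (unadjusted p = 0.00593, adjusted p = 0.336), which became 0.72 without M-LMSC replicate 2 and 1.78 with a pseudocount of 0.1. Lama2, the alpha chain of muscle and nerve, was level at 0.928 to 1.35 FPKM, and Lama3, the alpha chain of epithelial anchoring laminin, was at most 0.107 FPKM.

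**Figure D3:**
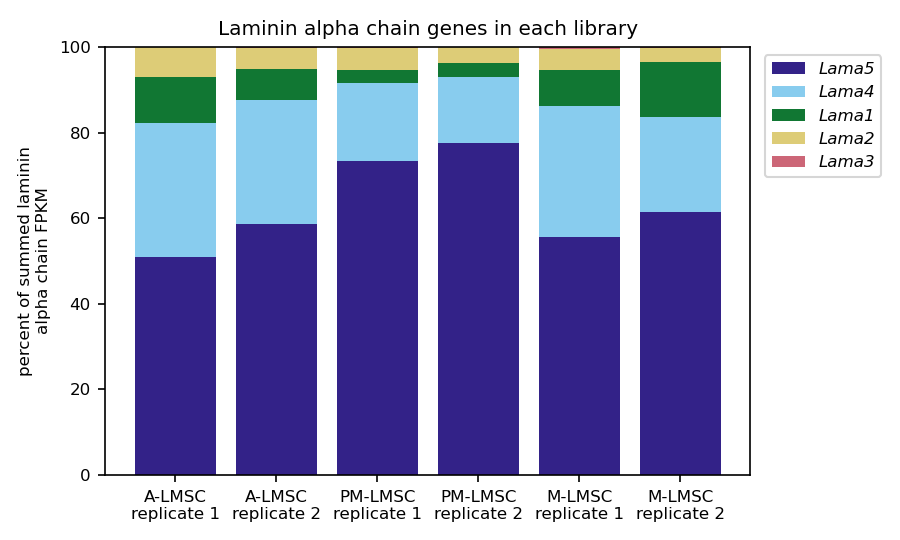
Share of each laminin alpha chain gene in the summed laminin alpha chain FPKM of each library, in percent, as bars that add to the whole. Lama5 takes 73.3% and 77.6% in the PM-LMSC libraries and 50.9% to 61.5% in the others.

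The beta and gamma chains were more even. Lamb1 and Lamb2 code for the beta chains that alternate in stromal laminins. Lamb1 stood at 35.5 to 38.9 FPKM over all libraries. Lamb2 stood at 36.0 and 33.1 FPKM at stage A, 25.3 and 30.0 at PM and 32.3 and 30.4 at M, so that A-LMSCs were above both later stages. Its log2 difference was -0.31 ± 0.12 for PM-LMSCs against A-LMSCs (unadjusted p = 0.0404, adjusted p = 0.725), and -0.19 without PM-LMSC replicate 1.

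Lamc1, the gamma chain of most laminins, stood at 41.7 and 38.9 FPKM at stage A, 44.3 and 41.5 at PM and 51.5 and 53.1 at M. Both M-LMSC libraries were above all others. The log2 difference of M-LMSCs was 0.37 ± 0.10 against A-LMSCs (unadjusted p = 0.0101, adjusted p = 0.197) and 0.28 ± 0.10 against PM-LMSCs (unadjusted p = 0.0316, adjusted p = 0.510), and that of the later stages was 0.23 ± 0.09 (unadjusted p = 0.0403, adjusted p = 0.427). Lamb3 (at most 0.201 FPKM) and Lamc3 (0.151 to 0.318 FPKM) were lower.

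Of the laminin-binding integrin alpha subunits, Itga3 and Itga7 were higher at the later stages, and Itga6 was not distinguished. Itga3, a receptor subunit for laminins that hold Lama5 or Lama3, stood at 11.7 and 15.1 FPKM at stage A, 27.1 and 35.1 at PM and 14.5 and 31.0 at M. Both PM-LMSC libraries were above both A-LMSC libraries, while 1 M-LMSC library lay among the A-LMSCs. The mean was 13.4 ± 2.43 (SD) at stage A, 31.1 ± 5.61 at PM and 22.8 ± 11.7 at M, so that PM-LMSCs stood at 2.33 times the A-LMSC mean. On the log2(FPKM + 1) scale the difference was 1.16 ± 0.33 (SE) for PM-LMSCs (unadjusted p = 0.0114, adjusted p = 0.525) and 0.90 ± 0.29 for the later stages (unadjusted p = 0.0183, adjusted p = 0.325). With the replicate block the latter adjusted p was 0.0445, and without M-LMSC replicate 1 it was 0.0303 with a difference of 1.16. Without M-LMSC replicate 2 it was 0.148 with a difference of 0.64.

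Itga7, the laminin receptor subunit of muscle cells and pericytes, stood at 2.83 and 3.37 FPKM at stage A, 7.49 and 7.81 at PM and 4.74 and 9.00 at M. All later libraries were above both A-LMSC libraries. Of 7 smooth muscle and pericyte markers tested, limma called 0 for PM-LMSCs against A-LMSCs, with or without the block. At an unadjusted p under 0.05, 1 was higher and 1 lower (background 6.53% of all genes). Des, a muscle intermediate filament and the higher of these, stood at 141.7 and 153 FPKM at stage A, 311 and 299 at PM and 147 and 225 at M, and its part in the pattern of Itga7 was not tested. The PM- and M-LMSC means of Itga7 were 2.46 and 2.21 times that of A-LMSCs. Its log2 difference was 1.08 ± 0.25 for PM-LMSCs (unadjusted p = 0.00411, adjusted p = 0.431), 0.89 ± 0.25 for M-LMSCs (unadjusted p = 0.0105, adjusted p = 0.201) and 0.98 ± 0.22 for the later stages (unadjusted p = 0.00316, adjusted p = 0.206). With the replicate block the adjusted p was 0.0737, 0.0495 and 0.0376 in the same order. The PM-LMSC difference, not called in either fit, was called when the M-LMSC libraries were left out (adjusted p = 0.0430). It was not called with a pseudocount of 0.1 (adjusted p = 0.417) or quantile normalization (adjusted p = 0.480). Its size was 0.98 and 1.17 without A-LMSC replicate 1 or 2, and 1.11 and 1.05 without PM-LMSC replicate 1 or 2. The M-LMSC difference was 1.29 without M-LMSC replicate 1 and 0.49 without M-LMSC replicate 2. That of the later stages was 1.18 and 0.78 in the same order.

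Itga6, the subunit shared by the laminin receptors of epithelia and stem cells, stood at 2.39 and 2.66 FPKM at stage A, 3.71 and 2.55 at PM and 3.18 and 2.34 at M. The stages overlapped. Transcripts of other genes match stretches of Itga6 at 95% identity or more, the longest of 326 bases, beside 9025 exon bases. How far these matches affect its value was not tested. Itgb4, the hemidesmosome subunit that pairs only with Itga6, had the same order as Itga3, at 0.432 and 0.533 FPKM at stage A, 1.02 and 1.25 at PM and 0.531 and 1.09 at M. Its mean was below 1 FPKM, so it was not tested, and its exons share 537 bases with a gene on the opposite strand.

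In Itga3, Itga7, Itgb4 and Lama5, replicate 1 lay below replicate 2 in A-, PM- and M-LMSCs alike. The sum of the mesothelial marker list had the same order. The 12 markers of that list, 3 of which (Krt8, Krt18 and Krt19) also stand in the epithelial list, summed to 130.0 and 192 FPKM at stage A, 315 and 447 at PM and 214 and 538 at M, and none was at 0 in all libraries. Of the 11 tested, limma called 0 higher and 1 lower (Krt19) for the later stages without the block. With the block it called 8 higher and 1 lower (background 2.05% of all genes). Without the block 8 higher and 1 lower had an unadjusted p under 0.05 (background 11.2%). Msln, a surface protein of mesothelium, stood at 8.87 and 12.7 FPKM at stage A, 33.8 and 47.7 at PM and 12.6 and 48.2 at M. The order of the M-LMSC replicates was not particular to this list. Replicate 1 was also below replicate 2 in the fibroblast sum of M-LMSCs (2676 and 3830 FPKM), but not in that of A-LMSCs (3004 and 2922). The same held in M-LMSCs for the epithelial sum (16.5 and 29.3 FPKM), whose list shares Krt8, Krt18 and Krt19 with this one. Neither of these sums was higher in both PM-LMSC libraries than in both A-LMSC libraries. In M-LMSCs the endothelial and smooth muscle sums were nearly level, and the haematopoietic and platelet sums had the other order. In bulk RNA, more cells of a type and more RNA per cell cannot be told apart. The part of mesothelial cells in the values of the laminin-binding integrins was not tested.

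**Figure D4:**
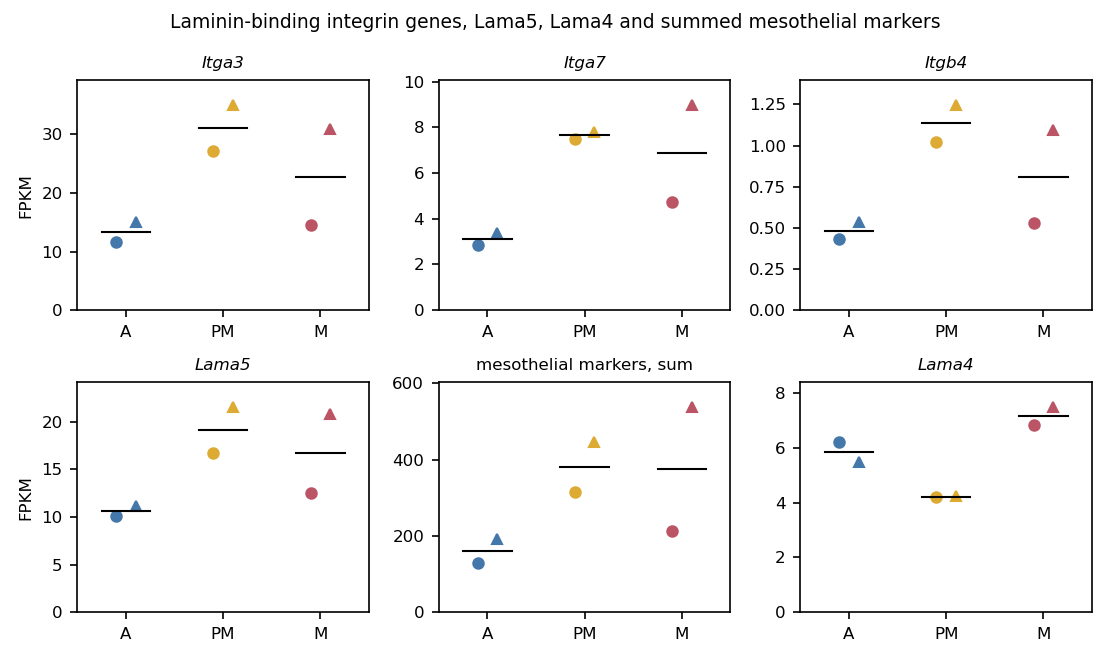
FPKM of Itga3, Itga7, Itgb4, Lama5 and Lama4 and the summed FPKM of 12 mesothelial markers in A-, PM- and M-LMSCs, with circles for replicate 1, triangles for replicate 2 and bars for stage means. In M-LMSCs the circle lies below the triangle for Itga3 (14.5 and 31.0), Itga7 (4.74 and 9.00), Itgb4, Lama5 and the marker sum, and Lama4 is lowest in PM-LMSCs.

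Of the collagen-binding integrin alpha subunits, only Itga11 was set apart at an unadjusted p under 0.05. Itga11, the fibroblast receptor for fibrillar collagen, stood at 18.2 and 4.44 FPKM at stage A, 7.75 and 11.4 at PM and 36.5 and 31.2 at M. Both M-LMSC libraries were above all others, and the A-LMSC libraries lay on either side of both PM-LMSC libraries. The log2 difference of M-LMSCs was 1.77 ± 0.53 against A-LMSCs (unadjusted p = 0.0141, adjusted p = 0.224) and 1.74 ± 0.53 against PM-LMSCs (unadjusted p = 0.0150, adjusted p = 0.426). Without A-LMSC replicate 2 the difference from A-LMSCs was 0.86, and without A-LMSC replicate 1 it was 2.68. Of the 14 fibroblast markers, all tested, 10 had a positive log2 difference for M-LMSCs against A-LMSCs, with a median of 0.07. Over all tested genes 54.7% were positive. The matrix genes Dcn and Lum were the 2 higher at an unadjusted p under 0.05, near the background of 14.6%. Without the block limma called 0 of the 14 and with it these 2 (adjusted p = 0.0239 and 0.0419, background 3.92%). The list as a whole was not set apart, with a sum of 3004 and 2922 FPKM in A-LMSCs against 2676 and 3830 in M-LMSCs. The relation of Itga11 to fibroblast genes was not tested.

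Itga1 and Itga2, receptor subunits for basement membrane and fibrillar collagen that lie 21.0 kb apart on chromosome 13, stood at 3.10 to 5.73 and 5.81 to 9.42 FPKM. For both, the M-LMSC libraries lay apart, on either side of both PM-LMSC libraries. Itga10, a cartilage collagen receptor subunit, was at most 0.302 FPKM.

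Of the RGD-binding alpha subunits, Itga5 was lower in M-LMSCs than in PM-LMSCs. Its A-LMSC values lay between the other stages without overlap, and the log2 difference of M-LMSCs against PM-LMSCs was -0.39 ± 0.11 (unadjusted p = 0.00991, adjusted p = 0.393). Itgav, which binds vitronectin and latent TGF-β, stood at 12.5 and 10.4 FPKM at stage A, 19.3 and 8.31 at PM and 9.61 and 11.8 at M, so that the PM-LMSC libraries alone spanned all other values. Itga8, a nephronectin receptor subunit of mesenchyme and smooth muscle, stood at 3.99 and 4.22 FPKM at stage A, 3.12 and 2.94 at PM and 4.72 and 1.74 at M. The platelet subunit Itga2b was at most 0.290 FPKM. The 5 platelet and megakaryocyte markers summed to 0.415 to 0.818 FPKM in all libraries but M-LMSC replicate 1, where the sum was 2.84 with Pf4 at 2.49, and Gp9 was the only marker of the list at 0 in all libraries.

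Itga9, a receptor subunit for tenascin, osteopontin and VCAM-1, stood at 2.81 and 2.33 FPKM at stage A, 2.40 and 2.07 at PM and 4.03 and 3.77 at M. Both M-LMSC libraries were above all others and close to each other. The log2 difference of M-LMSCs was 0.46 ± 0.13 against A-LMSCs (unadjusted p = 0.0100, adjusted p = 0.196) and 0.60 ± 0.13 against PM-LMSCs (unadjusted p = 0.00267, adjusted p = 0.266). Its relative Itga4, the leukocyte VCAM-1 receptor subunit, was at most 0.116 FPKM.

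Among the beta subunits outside leukocytes, Itgb3, the partner of Itgav and Itga2b, stood at 0.911 and 0.920 FPKM at stage A, 0.956 and 0.824 at PM and 1.18 and 1.40 at M. M-LMSCs were above the other stages, with a log2 difference from PM-LMSCs of 0.27 ± 0.11 (unadjusted p = 0.0472, adjusted p = 0.557), or 0.48 with a pseudocount of 0.1. All A- and PM-LMSC values were below 1 FPKM, so Itgb3 passed the filter only through M-LMSCs. Its p-value, included in the unadjusted count of that contrast, is therefore not independent of the filter. Itgb6 and Itgb8, the subunits of the integrins that activate TGF-β in epithelium and other cells, were at most 0.302 and 0.138 FPKM.

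The leukocyte integrins were low, and Itgb2 and Itgam were highest in M-LMSCs. Itgb2 (CD18), the common beta subunit of leukocyte integrins, stood at 2.39 and 2.16 FPKM at stage A, 2.99 and 1.63 at PM and 4.14 and 3.28 at M. Its log2 difference for M-LMSCs was 0.52 ± 0.21 against A-LMSCs (unadjusted p = 0.0456, adjusted p = 0.331) and 0.53 ± 0.21 against PM-LMSCs (unadjusted p = 0.0419, adjusted p = 0.546). The latter was 0.23 without PM-LMSC replicate 2 and 0.83 without PM-LMSC replicate 1. A transcript of another gene, Gm14699, matches 228 bases of the Itgb2 transcript at 96.5% identity.

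Itgam (CD11b), whose protein was absent from the surface profile by which the cultures were defined, appears under 2 identifiers whose exons share 3450 bases. ENSMUSG00000030786, the first, stood at 0.0799 and 0.468 FPKM at stage A, 0.488 and 0.0349 at PM and 2.45 and 1.46 at M. The second, ENSMUSG00000108596, stood at 0.382 and 0.0433 FPKM in A-LMSCs and at 0.0256 and 0.203 in PM-LMSCs, and was listed at 0 in both M-LMSC libraries. Their sum was 0.461 and 0.511 FPKM at stage A, 0.514 and 0.238 at PM and 2.45 and 1.46 at M, so that the spread of the A-LMSC libraries under either identifier was not present in the sum. The ratio of M-LMSC to A-LMSC means was 7.13 for the first identifier and 4.01 for the sum. Both lay below the filter and were not tested.

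The remaining leukocyte subunits had other orders. Itgb7, the partner of Itga4 and Itgae on lymphocytes, stood at 0.980 and 0.983 FPKM at stage A, 0.727 and 0.428 at PM and 0.303 and 0.432 at M, highest in A-LMSCs. Itgax (CD11c), which lies beside Itgam and Itgad on chromosome 7, stood at 0.125 to 0.625 FPKM, and Itgal (CD11a), Itgad and Itgae (CD103) were at most 0.179, 0.104 and 0.0716 FPKM.

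The summed markers of blood cells were highest in M-LMSCs too. The 14 haematopoietic markers summed to 138 and 129 FPKM at stage A, 174 and 80.5 at PM and 411 and 300.1 at M. Of the 7 tested, limma called 0 for M-LMSCs against A-LMSCs without the block and 6 higher with it (background 3.92% of all genes). Without the block all 7 were higher at an unadjusted p under 0.05 (background 14.6%). Tyrobp, a myeloid signalling adaptor, stood at 4.59 and 4.25 FPKM at stage A, 4.92 and 3.12 at PM and 13.1 and 12.1 at M. Ptprc (CD45), of the same list, was too low to be among the 7 tested. The part of residual leukocytes in the values of Itgb2 and Itgam was not tested.

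**Figure D5:**
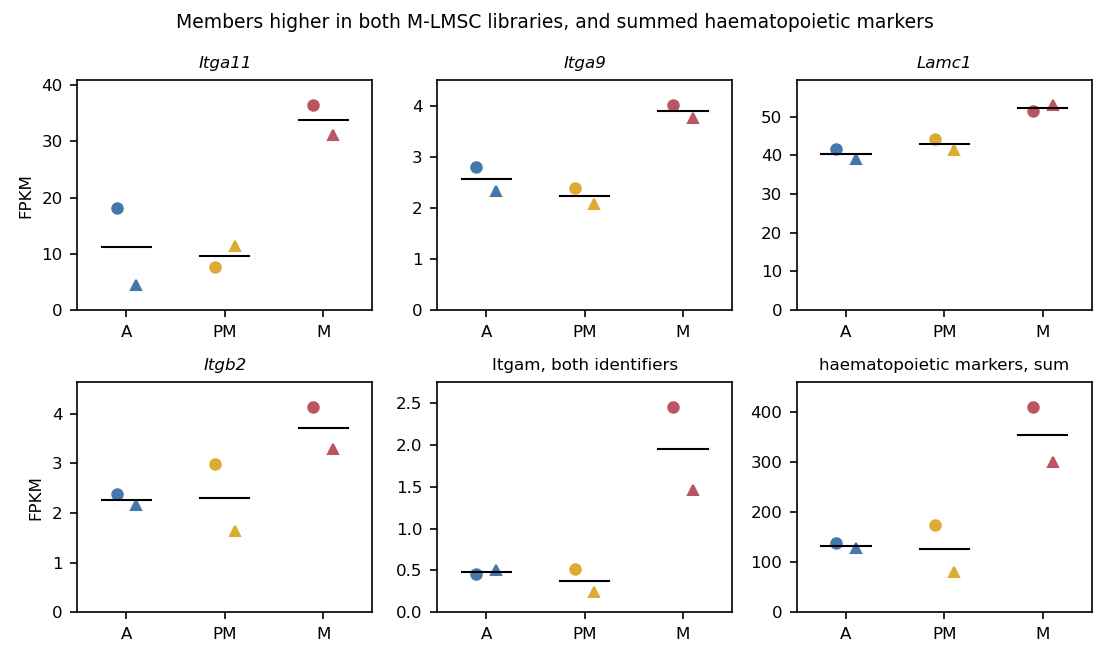
FPKM of Itga11, Itga9, Lamc1, Itgb2 and the sum of both Itgam identifiers, and the summed FPKM of 14 haematopoietic markers, in A-, PM- and M-LMSCs, with circles for replicate 1, triangles for replicate 2 and bars for stage means. In each panel both M-LMSC libraries lie above all other libraries, with Itga11 at 36.5 and 31.2 FPKM.

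Partners of the members were read from lists that do not contain them. Of 34 integrin activators and adhesion adaptors, 32 were tested and limma called 0 in any contrast. At an unadjusted p under 0.05, 4 were higher and 1 lower for M-LMSCs against A-LMSCs, near the background of 14.6% of all genes. With the replicate block, 3 were called higher and 1 lower in M-LMSCs than in A-LMSCs (background 3.92%). Fermt3, the kindlin of blood cells, stood at 0.946 and 0.795 FPKM at stage A and 2.41 and 2.03 at M (log2 difference 0.78 ± 0.14, adjusted p = 0.106, with the block 0.0208). With the block Fermt3 was also called higher in M-LMSCs than in PM-LMSCs (adjusted p = 0.0473). Its A-LMSC values were below 1 FPKM, so it passed the filter through the later stages, and its calls are not independent of that filter. Ptk2b, the focal adhesion kinase relative Pyk2, stood at 5.91 and 6.71 FPKM at stage A and 9.03 and 11.3 at M (0.61 ± 0.16, adjusted p = 0.185, with the block 0.0296). Kank1, a talin-binding adaptor, stood at 10.1 and 10.9 FPKM at stage A and 14.1 and 18.0 at M (0.56 ± 0.14, adjusted p = 0.161, with the block 0.0425). Bcar1 (p130Cas), a scaffold phosphorylated at focal adhesions, was the lower gene, at 89.0 and 88.6 FPKM at stage A and 63.9 and 61.8 at M (-0.49 ± 0.10, adjusted p = 0.118, with the block 0.0429). For the later stages together Ptk2b and Kank1 were called with the block (adjusted p = 0.0309 and 0.0499).

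Of 19 basement membrane partners, 13 were tested and limma called 0 without the block. At an unadjusted p under 0.05, 5 were higher for M-LMSCs against A-LMSCs (background 14.6% of all genes). Col4a1 and Col4a2, the chains of the common collagen IV network to which laminin is linked, were called higher in M-LMSCs with the block (background 3.92%). Col4a1 stood at 225 and 210.3 FPKM at stage A, 332 and 338 at PM and 359.8 and 379 at M, with log2 differences from A-LMSCs of 0.76 ± 0.11 for M-LMSCs (adjusted p = 0.084, with the block 0.0204) and 0.69 ± 0.09 for the later stages (adjusted p = 0.109, with the block 0.0252). Col4a2 stood at 184 and 172 FPKM at stage A, 247 and 274 at PM and 269 and 295 at M, with a log2 difference of 0.66 ± 0.12 for M-LMSCs (adjusted p = 0.101, with the block 0.0284) and 0.60 ± 0.10 for the later stages (adjusted p = 0.131, with the block 0.0352). The median of the 13 for M-LMSCs against A-LMSCs was 0.27 on the log2 scale, beside 0.03 over all tested genes.

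The other partner lists held few such genes. Of 23 integrin ligands other than laminins, 18 were tested. For M-LMSCs against A-LMSCs limma called 1 with the block (background 3.92% of all genes) and 0 without it. At an unadjusted p under 0.05, 2 were higher and 2 lower in that contrast (background 14.6%). Ltbp1, which ties latent TGF-β to the matrix, stood at 19.2 and 21.3 FPKM at stage A, 14.4 and 15.0 at PM and 12.1 and 11.7 at M (log2 difference of M-LMSCs from A-LMSCs -0.71 ± 0.11, adjusted p = 0.0875, with the block 0.0223). Of 17 laminin receptors other than integrins, 14 were tested and 0 were called with or without the block. Sdc4, a syndecan of focal adhesions, had the smallest unadjusted p of the list for M-LMSCs against A-LMSCs (log2 difference 0.45 ± 0.11, unadjusted p = 0.00587). Of the 5 hemidesmosome genes, 2 were tested and 0 were called, and Plec, which links Itgb4 to keratin, stood at 29.4 and 29.0 FPKM in A-LMSCs and 22.2 in each M-LMSC library (-0.38 ± 0.10, unadjusted p = 0.00673).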

How the data were processed

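RNA of cultured LMSCs was sequenced, and the authors deposited one FPKM value per gene and library, without counts, in a table of the whole series whose columns were matched to stages through the sample labels. Per the submitters' processing notes TopHat2 2.0.9 and mm10 were used. The counting tool, its use of strand and the annotation are not given in the sources used here. Positions and exon overlaps came from GENCODE M21 (GRCm38), and near-identical copies from blastn 2.17.0 (at least 95% identity over at least 200 bases). Low values did not resolve into whole reads, so depth is an estimate and no count test was run.

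The 10279 genes averaging 1 FPKM or more across the 6 libraries were fitted as log2(FPKM + 1) in limma 3.58.1 (R 4.3.3), with 1 mean per stage, a mean-dependent prior and Benjamini-Hochberg adjustment at 0.05. A fold change on this scale understates that of low genes. The fit was tested on simulated data. Deviations from the stage mean correlated between same-numbered libraries at 0.238 (A and PM), 0.307 (A and M) and 0.491 (PM and M). The numbers were therefore treated as pairing them, with the replicate block as an alternative. This pairing was read from these same data, and the stages came from mice of different ages. It may be arbitrary, and every call with the block rests on it. The other alternatives were a pseudocount of 0.1, no filter, quantile normalization, median centring, only the stages compared, a log2 fold change of at least 1 and each library left out. Names with more than 1 identifier used the first identifier. Every member reported is named (1 member and some list genes, counted in the totals, are not reported here), with a fold change only at an unadjusted p under 0.05 or when called with the block, and partner genes when called or by the smallest p. Beside these, the marker genes named were picked with their values in view. The members and lists were chosen with earlier results of these data known. The further library that the paper has for each stage is not used here.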

Additional observations from a re-analysis of the deposited data

Results flagged for a closer look

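Itga5 and Lama4 were members whose PM-LMSC values both lay on one side of the A-LMSC pair, with both M-LMSC values on the other. The log2 difference of M-LMSCs against PM-LMSCs was -0.39 for Itga5 and 0.64 for Lama4. Neither difference was called in the limma fit, in which 0.0292% of all tested genes were. That share is of genes called, not of genes with such an order. How many of all genes had this order was not counted, so these members cannot be set against it. Both contrasts use the same A-LMSC libraries, and with 2 libraries per stage such an order needs no large difference.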

How the results depend on the processing

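The count of members called at an adjusted p under 0.05 was 0 in all 4 contrasts, and it stayed 0 with a pseudocount of 0.1, no filter on low values, quantile normalization, median centring and a log2 fold change of at least 1. With the replicate block it was 1 for M-LMSCs against A-LMSCs and 2 for the mean of the later stages against A-LMSCs, and the block changed no other member's call. With only the stages compared it was 1 for PM-LMSCs against A-LMSCs. Leaving out each library in turn gave 0 to 1 for PM-LMSCs and for M-LMSCs against A-LMSCs, 0 for M-LMSCs against PM-LMSCs, and 0 to 2 for the later stages. The calls were of Itga7 and, for the later stages, Itga3, and the cause was not tested. In 2 settings chosen after seeing the data, the replicate block with no filter called 0 in each contrast, and the block with a pseudocount of 0.1 called 1 for M-LMSCs against A-LMSCs and 1 for the later stages. Of the 22 fold changes printed, none reversed under the alternatives run. They were picked by their p-values in these same data, which by itself makes a reversal unlikely. The genes called in the whole table, 4, 7, 3 and 13 in the order of the contrasts, numbered 30, 403, 43 and 211 with the block, 1, 3, 3 and 0 with no filter, and 28, 85, 18 and 93 without M-LMSC replicate 1. For Itgam the sum of both identifiers gave a ratio of 4.01 where the first gave 7.13. Depth limits most the members under 1 FPKM.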
